A study of Homo sapiens with 73 samples.

Results

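NR0B1, NKX2-2, BCL11B, GLI1, ID2, NPY1R, PRKCB, CAV1, PAPPA and JAKMIP2 are genes that the fusion protein EWSR1-FLI1 is known to activate in Ewing sarcoma. These 10 genes were chosen by symbol from the 36233 genes of the deposited table, and all 10 were among the 14565 genes with a mean normalized count of at least 10 that were tested. They were followed in CHLA-9, an established Ewing sarcoma cell line labelled with the EWSR1-FLI1 genotype, through an evolution experiment in culture. All lineages started from this line before any treatment, which gave 1 parental library. The 7 lineages R1 to R7, called treated here, alternated between a triple combination, VDC, and a pair of drugs, EC, over 10 time points, or 5 cycles. In VDC, vincristine was combined with doxorubicin and cyclophosphamide. In EC, cyclophosphamide was combined with etoposide. Lineages R8, R9 and R10 received the solvent DMSO and were sampled at matching time points. A drug exposure lasted 5 days at the concentration with 70% effect, and RNA was taken after the washed cells had grown back without drug, so the values describe regrown cultures and not cells in drug. The odd-numbered time points came after VDC, the even-numbered after EC. The treated lineages gave 49 libraries and the DMSO lineages 23. Time point 2 held only DMSO libraries and time point 3 only treated ones, and not every lineage was present at each time point. All cultures come from 1 cell line, so the lineages show how cultures of CHLA-9 vary and not how tumours vary.

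EWSR1-FLI1 joins the activating part of EWSR1 to the DNA-binding part of FLI1, a factor of the ETS family. The fusion binds ETS sites around the core GGAA, and runs of repeated GGAA, which lie distant from many target genes, act as enhancers when it is bound. NR0B1 (also called DAX1) is the classical target next to such a repeat, and its product, like NKX2-2, works mainly as a repressor of transcription that tumour cells need for transformed growth.

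The promoters of NR0B1, NPY1R and CAV1 are shown because the results below turn on these genes and because they hold the GGAA core, or TTCC, its form on the other strand, 5, 6 and 4 times. The sequences are the 250 bases before the annotated start in RefSeq (build GRCh38.p14), written 5′ to 3′ along the gene, with every GGAA and TTCC in capitals. The NR0B1 window is chrX:30309391-30309640 on the minus strand, the NPY1R window chr4:163332597-163332846 on the minus strand, and the CAV1 window, before the first of 3 annotated starts, chr7:116524759-116525008 on the plus strand.
NR0B1: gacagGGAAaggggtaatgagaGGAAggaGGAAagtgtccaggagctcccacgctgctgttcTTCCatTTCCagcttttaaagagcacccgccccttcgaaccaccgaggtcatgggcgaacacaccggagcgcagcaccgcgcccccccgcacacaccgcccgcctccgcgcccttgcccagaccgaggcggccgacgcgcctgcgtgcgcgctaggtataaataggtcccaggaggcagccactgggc
NPY1R: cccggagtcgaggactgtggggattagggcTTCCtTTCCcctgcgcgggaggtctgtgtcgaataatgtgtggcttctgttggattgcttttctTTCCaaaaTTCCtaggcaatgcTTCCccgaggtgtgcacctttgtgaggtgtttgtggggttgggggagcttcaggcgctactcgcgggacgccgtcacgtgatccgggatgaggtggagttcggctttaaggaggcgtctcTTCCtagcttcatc
CAV1: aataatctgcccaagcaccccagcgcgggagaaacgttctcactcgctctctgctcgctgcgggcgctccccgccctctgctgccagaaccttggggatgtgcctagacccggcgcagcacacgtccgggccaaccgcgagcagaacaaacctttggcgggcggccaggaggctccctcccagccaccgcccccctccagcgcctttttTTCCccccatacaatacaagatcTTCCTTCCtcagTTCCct

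Of the 9 target genes with a RefSeq promoter, 7 held GGAA or TTCC in this window, and so did 92.8% of 27305 genes, counted on both strands at the first start of each gene. The repeated form GGAAGGAA, which is TTCCTTCC on the other strand and overlaps the shorter motif, was found for CAV1 alone among the 9, and for 2.99% of all genes. At least as many cores as in NPY1R were found for 9.34% of genes, and at least as many as in NR0B1 for 18.8%. For CAV1 the share was 34.5%, and ID2, whose promoter is not shown, held the same 4 cores. PRKCB and BCL11B held none in this window. These letters describe the promoter only, and the distant repeats were not examined.

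The labels were first checked against Ewing sarcoma genes. FLI1, whose reads include those of the fusion's 3′ part, lay between 794 and 1351 normalized counts in all 73 libraries, with medians of 1086 in the treated and 1083 in the DMSO arm. EWSR1 had medians of 2646 in both arms. Neither fusion partner passed the test between arms. The log2 difference between arms over all time points was -0.02 ± 0.04 (SE) for FLI1 and 0.03 ± 0.04 for EWSR1, with limma adjusted p of 0.806 and 0.702. The gene counts cannot separate the fusion from the unfused alleles. Of 7 Ewing sarcoma markers 6 were kept by the filter, and the exception was the surface antigen CD99, which was listed at 2.31 at most. The kept markers include the target genes NR0B1, NKX2-2 and PRKCB and the fusion partner FLI1, so this count is not a separate check of the target genes. CD99 lies in a region with a near-identical copy on the other sex chromosome, so its value is uncertain. Among markers of other cells, EPCAM, CDH1 and KRT19 (epithelium), CD3E (T cells) and MYOD1 (muscle) were at or near 0 on average. The summed muscle and fibroblast markers, 6 of 7 kept, ranged from 6267 to 50206 in treated and from 5275 to 18308 in DMSO libraries, and the highest 2 were the last libraries of R2 and R1. The summed epithelial markers, 3 of 6 kept, ranged from 15.05 to 763 in treated and from 15.9 to 1461 in DMSO libraries. Of 6 blood cell markers 1 was kept, and their sum never exceeded 70.6. Among treated libraries R1 stood apart at the start: at time point 1 it was nearest to the parental library (r 0.979), and at time point 3 to the DMSO lineage R9 at time point 2 (r 0.986). Results that change without these libraries of R1, or without the late libraries described below, are given with and without them.

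On GRCh38, as annotated in GENCODE 29, NR0B1 lies at chrX:30304206-30309598, NKX2-2 at chr20:21511010-21514026, BCL11B at chr14:99169287-99271524 and GLI1 at chr12:57460135-57472262. ID2 lies at chr2:8678845-8684453, NPY1R at chr4:163323961-163344832, PRKCB at chr16:23835946-24220611, CAV1 at chr7:116524785-116561184, PAPPA at chr9:116153804-116402322 and JAKMIP2 at chr5:147585439-147782848. Lengths were those of all annotated exons of a gene together, from 2092 bases in NKX2-2 to 11573 in PAPPA. Per kilobase of exon, the target genes spanned a wide range of levels. BCL11B, a zinc finger factor of T cells and neurons, stood highest, with a median of 2040 normalized counts per kilobase over the 73 libraries. NPY1R, a receptor of neuropeptide Y, followed at 1790.0 and ID2, an inhibitor of basic helix-loop-helix factors, at 1489.9 per kilobase. NR0B1 (1131), CAV1, the scaffold protein of caveolae (1117), and PRKCB, the beta form of protein kinase C (1074), formed a middle group. These neighbours did not separate, since NR0B1 ranged from 381 to 2517, CAV1 from 32.9 to 4247 and PRKCB from 768 to 1605 per kilobase. JAKMIP2, a protein of the microtubule-binding JAKMIP family, had 166 and PAPPA, a secreted protease that releases insulin-like growth factors from their binding proteins, 141 per kilobase. NKX2-2 (12.7) and GLI1, the transcription factor at the end of the Hedgehog pathway (10.95), were lowest, and their ranges overlapped as well.

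**Figure D1:**
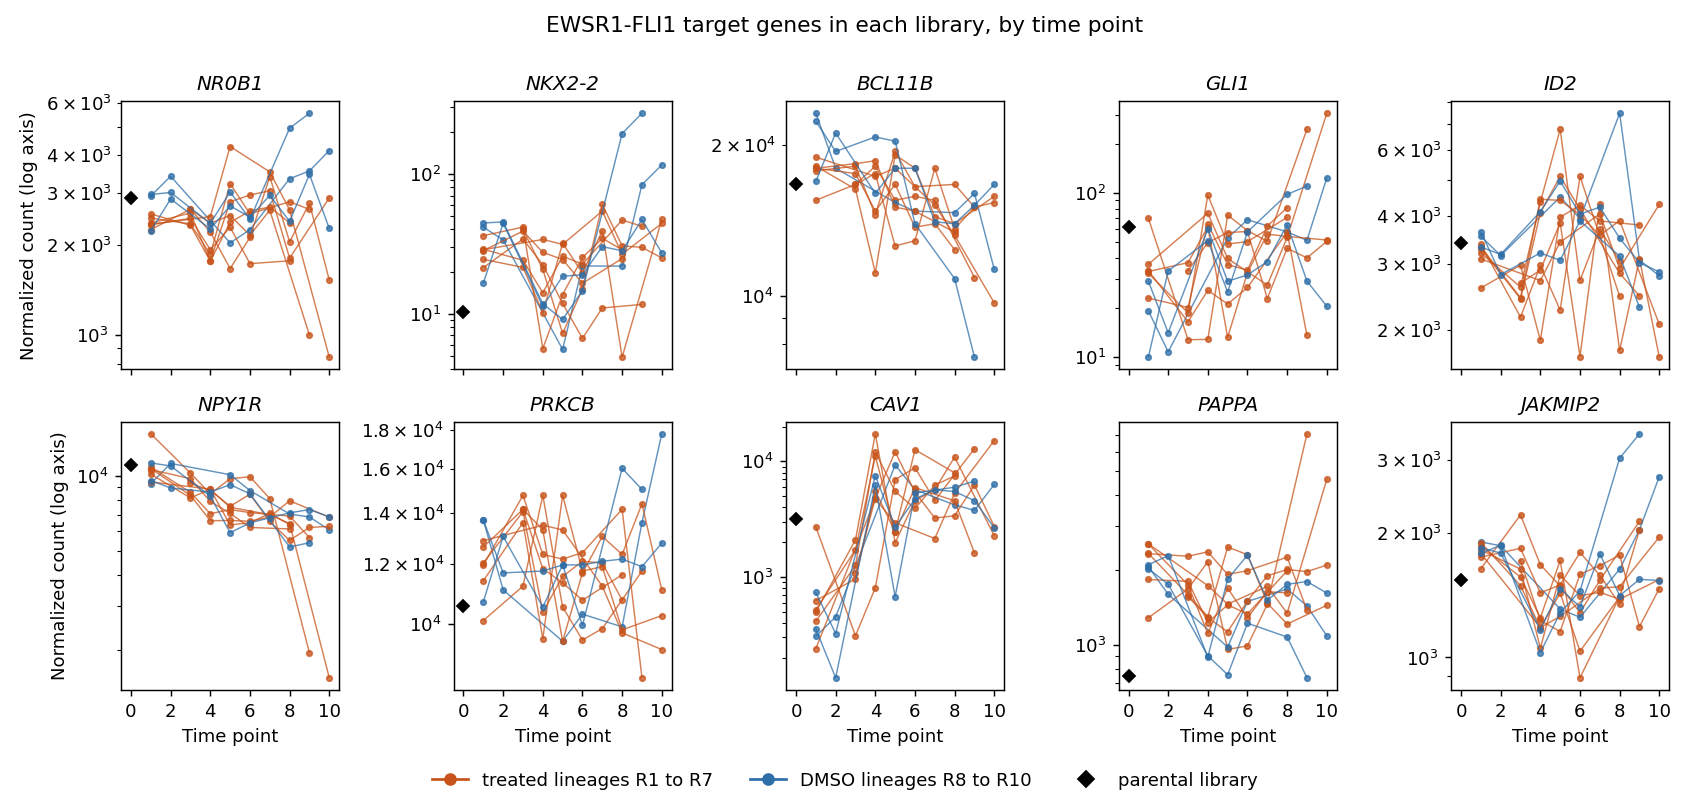
Normalized counts of the 10 target genes (log axis, each panel with its own scale) against time point, with lines joining libraries of the same lineage in the treated (R1 to R7) and DMSO (R8 to R10) arms and a diamond for the parental library at 0. The median of CAV1 is low up to time point 3 and higher from time point 4 in both arms, and NPY1R falls in both arms, to 5185 at the lowest in DMSO libraries and to 1546 in R2 (time point 10) and 1944 in R1 (time point 9) among treated ones.

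The first comparison asked whether repeated chemotherapy set the treated lineages apart from the DMSO lineages, with 1 value per lineage adjusted for time point. None of the 10 target genes passed the threshold in limma (adjusted p under 0.05), nor did any of the 14565 genes (0%), while the unadjusted p was under 0.05 for 3 target genes and for 1968 of all genes (13.5%). The median log2 difference was -0.11 over the target genes and -0.0036 over all tested genes, given as a description.

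NR0B1 had the smallest p of the 10. Its lineage values, on the log2 scale, were 11.02, 11.26, 11.04, 11.31, 11.12, 11.29 and 11.19 in R1 to R7 and 11.36, 11.71 and 11.59 in R8, R9 and R10. The values of the arms did not overlap, which was true of 439 of the 14565 genes (3.01%). The log2 difference was -0.38 ± 0.08 (SE, 7 against 3 lineages), or 1.30-fold lower in treated lineages, with a limma adjusted p of 0.255. In bulk RNA, fewer cells with a transcript and less transcript per cell cannot be told apart.

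PAPPA went the other way, at a log2 difference of 0.43 ± 0.12 and a limma adjusted p of 0.269. Its values in R8, R9 and R10 were 10.75, 10.13 and 10.41, and those of R1 to R7 lay between 10.72 and 11.06, so the groups overlapped through R8 alone. NPY1R was next, at -0.17 ± 0.08 and an adjusted p of 0.369. Without R8 both NR0B1 (-0.49, adjusted p 0.00736) and PAPPA (0.59, adjusted p 0.00912) passed in limma, beside 1357 of the 14565 genes (9.32%). Without the last libraries of R1 (time point 9) and R2 (time point 10) the NR0B1 difference was -0.25, without 4 late DMSO libraries it was -0.20, and without all 6 it was -0.14 (adjusted p 0.642). ID2 (-0.18), NKX2-2 (-0.32), JAKMIP2 (-0.13), PRKCB (-0.09), BCL11B (-0.04), CAV1 (0.23) and GLI1 (0.12) had log2 differences whose lineage values overlapped between arms. The signs of NKX2-2, JAKMIP2 and PRKCB turned without 4 late DMSO libraries that are described below, and GLI1 was at -0.059 without the last libraries of R1 and R2, at -0.023 without R1 and at -0.014 without R8.

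**Figure D2:**
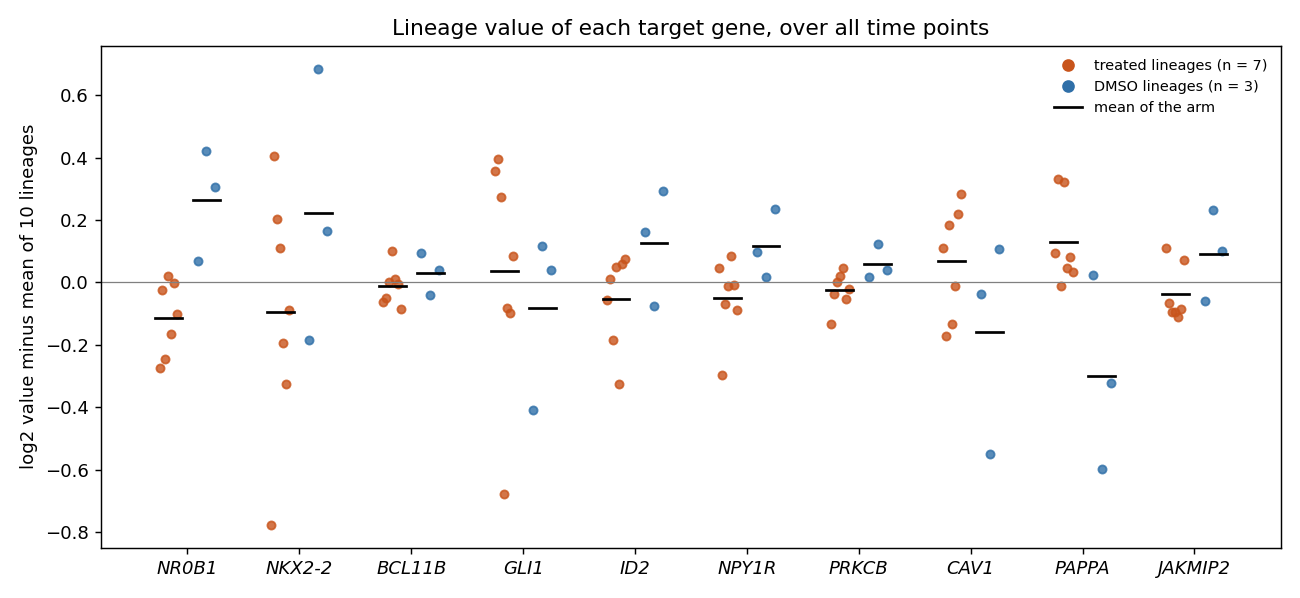
Value of each target gene in each lineage, adjusted for time point, as the log2 difference from the mean of the 10 lineages (points; 7 treated and 3 DMSO), with the mean of each arm as a line. The arms do not overlap for NR0B1, and for PAPPA R8 lies among the treated lineages.

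Of 28 other EWSR1-FLI1 activated genes that were kept, of 29 listed, 0 passed in either direction in the same limma comparison, 4 had an unadjusted p under 0.05, and their median log2 difference was -0.03. The cyclin gene CCND1 (-0.17 ± 0.07, adjusted p 0.322) and RBM11, an RNA-binding splicing factor (-0.12 ± 0.04, adjusted p 0.320), had the smallest p of that list.

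The second comparison asked which target genes changed over the course of the experiment, from the slope of each lineage on time point. In treated lineages 5 of 10 target genes passed the limma threshold, beside 5664 of all 14565 genes (38.9%), so the count is not a result about the target genes as a group. CAV1 and GLI1 rose, where 15.3% of all genes rose, and NPY1R, BCL11B and PRKCB fell, where 23.6% of all genes fell. Without time point 1 none of the 5, and none of the 14565 genes, passed (limma adjusted p of the 5 between 0.0959 and 0.139). The signs were kept, with slopes of 0.27 for CAV1, 0.23 for GLI1, -0.16 for NPY1R, -0.07 for BCL11B and -0.05 for PRKCB, so each call below rests on time point 1.

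CAV1 had the steepest slope, 0.38 ± 0.08 log2 units per time point (SE, n = 7 lineages, limma adjusted p 0.00916), and it was positive in 7 of 7 lineages. The parental library held 3200.1 normalized counts of CAV1. At time point 1 the treated lineages held 240.1 at the lowest, 509 at the median and 2711 at the highest, and the DMSO lineages R8, R9 and R10 held 735, 355 and 306. At time point 2 the DMSO lineages held 324, 134 and 453, and at time point 3 the treated lineages ranged from 310.1 to 2100.0 with a median of 1168. The first cultures of both arms thus lay below the parental library. At time point 4 the treated median was 5554 (806 to 17335), and R8 and R9 held 7523 and 6210. From time point 4 on, the medians were 5422 over 37 treated and 5500 over 17 DMSO libraries, against 794 and 339.5 up to time point 3. The treated median rose most between time points 3 and 4. R8 and R9, without a library at time point 3, rose between time points 2 and 4. Over time points 4 to 10 alone the treated slope was 0.04 ± 0.11 (limma adjusted p 0.829). R1 stood apart at time point 4, at 806, where the other treated lineages held 4726 or more, and it reached 6973 at time point 5. In the DMSO arm R9 was back at 676 at time point 5, and it held 5329.6 at time point 6.

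The step in CAV1 was seen in both arms, and the DMSO slopes were 0.32, 0.64 and 0.45 in R8, R9 and R10, with a mean of 0.47 ± 0.11. With the spread estimated from the 3 DMSO lineages no gene passed (0%; 4038 genes and 5 target genes at an unadjusted p under 0.05; limma). With the spread shared over all 10 lineages, 1437 genes (9.87%) passed, and CAV1 (adjusted p 0.0373) and BCL11B (adjusted p 0.0429) were the target genes among them. The difference between the arms' CAV1 slopes was -0.09 ± 0.14 (limma adjusted p 0.857).

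Of 6 other caveola genes kept, of 7 listed, 3 rose in treated lineages, where 15.3% of all genes rose, and 0 fell (limma). They were the coat genes CAVIN2 (0.51 ± 0.11, adjusted p 0.0113) and CAVIN1 (0.38 ± 0.07, adjusted p 0.00717) and EHD2, an ATPase at the neck of caveolae (0.18 ± 0.04, adjusted p 0.00937). In DMSO lineages, with the spread shared over all 10 lineages, 1 of the 6 rose, where 4.55% of all genes rose. It was CAVIN1 (0.33 ± 0.09, limma adjusted p 0.0475). Over the 73 libraries the genes most like CAV1 were the BCL2 family member BOK (Pearson r 0.95), the Notch coactivator MAML2 (0.94) and CAVIN1 (0.94), as a description of libraries that share lineages and the step at time point 4.

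GLI1 rose by 0.15 ± 0.04 log2 units per time point (limma adjusted p 0.0222), with a positive slope in 6 of 7 treated lineages. At time point 1 the treated lineages held 22.9 to 70.3 normalized counts with a median of 33.4, and R8, R9 and R10 held 29.05, 9.99 and 19.2. At time point 8 the treated median was 56.1 (46.0 to 81.3), and the DMSO lineages held 64.1, 98.1 and 57.9. The highest values were 306 in R2 (time point 10) and 245 in R1 (time point 9). Without these 2 libraries the slope was 0.09 ± 0.03 and did not pass (limma adjusted p 0.0646). Leaving out R2, R3 or R7 also ended the call, with slopes of 0.14, 0.14 and 0.13, as did leaving out R1 at time points 1 and 3 (0.20) or the filter on low values (0.15), at adjusted p of 0.0579 to 0.0727. The DMSO slopes of GLI1 were 0.04, 0.35 and 0.29, with a mean of 0.23 ± 0.07 (adjusted p 0.152).

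Hedgehog genes beside GLI1 were mostly below the threshold. Of 10 kept, of 13 listed, 0 rose and 2 fell in treated lineages (limma): HHIP, which binds Hedgehog ligands (-0.12 ± 0.03, adjusted p 0.0118), and the receptor gene PTCH1 (-0.05 ± 0.01, adjusted p 0.0234). In DMSO lineages all 10 had negative slopes, with a median of -0.08 against -0.01 in treated lineages. With the spread shared over all 10 lineages 0 of them passed there, and HHIP was at -0.20 ± 0.06 (limma adjusted p 0.0509). HHIP and PTCH1 are themselves known as genes that GLI factors switch on. GLI1 was most like RHOC (r 0.83), a small GTPase, PDLIM7 (0.82), an adaptor of actin fibres, and RTN4 (0.82), a protein of the endoplasmic reticulum. Among the target genes it correlated with CAV1 at 0.68 and with BCL11B at -0.70 over 73 libraries.

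NPY1R fell by 0.14 ± 0.03 log2 units per time point (limma adjusted p 0.0104), with a negative slope in 7 of 7 treated lineages. The parental library held 11102 normalized counts. At time point 1 the treated lineages ranged from 9469 to 14768 with a median of 10656, and R8, R9 and R10 held 11279, 9574 and 9317. By time point 8 the treated median was 6406 (5510.1 to 7949), and the DMSO lineages held 7107, 5185 and 7031. Values at time point 8 lay below those at time point 1 in both arms, with no overlap, and the share of all genes that did so was not counted. The slopes of R8, R9 and R10 were -0.08, -0.11 and -0.08, with a mean of -0.09 ± 0.02 (limma adjusted p 0.142), and the slopes of the arms differed by -0.05 ± 0.05 (adjusted p 0.748). Without the last libraries of R1 and R2 the treated slope was -0.10 ± 0.01 (adjusted p 0.00676). NPY5R, a second neuropeptide Y receptor and the only 1 of 5 listed partner genes kept, fell as well (-0.14 ± 0.02, adjusted p 0.00685). The genes most like NPY1R were ITM2A (r 0.89), CAPRIN1 (0.86) and PTGR1 (0.85), respectively a membrane protein, an RNA-binding protein and a prostaglandin reductase.

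BCL11B fell by 0.05 ± 0.01 per time point in treated lineages (limma adjusted p 0.0174), in 7 of 7. Its normalized counts had a median of 17893 (15522 to 18942) up to time point 3 and of 15037 (9663 to 19448) from time point 4. In DMSO libraries these medians were 20314 and 15172, and the slopes of R8, R9 and R10 were -0.04, -0.18 and -0.08. Without R7 its slope was -0.05 ± 0.01 and the call was lost. BCL11B was most like the chromatin remodelling gene ARID1B (r 0.87), the nuclear receptor coactivator NCOA2 (0.85) and EPM2AIP1 (0.85).

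PRKCB had the smallest change of the 5, a slope of -0.03 ± 0.01 (limma adjusted p 0.0486), negative in 7 of 7 treated lineages and positive in 3 of 3 DMSO lineages (0.01, 0.03 and 0.03). The difference between these slopes, -0.05 ± 0.02, did not pass (adjusted p 0.487) and was 0.0076 without the 4 late DMSO libraries. The treated call was lost when R2, R3, R4, R6 or R7 was left out, with slopes from -0.029 to -0.022, and, at the same slope, without the filter on low values and without the variance trend. Among 5 other protein kinase C genes kept, of 8 listed, 2 rose and 0 fell in treated lineages: the epsilon form PRKCE (0.31 ± 0.08, adjusted p 0.0173) and the alpha form PRKCA (0.06 ± 0.02, adjusted p 0.0252). All 5 had positive slopes in both arms. In DMSO lineages, with the spread shared over all 10 lineages, 1 of them passed, PRKCA (0.09 ± 0.03, limma adjusted p 0.0490). PRKCB was most like the polycomb gene CBX6 (r 0.80), the muscle stem cell factor PAX7 (0.76) and JARID2 (0.74), which works with a polycomb complex.

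The remaining 5 target genes did not pass for slope in treated lineages. NR0B1 had slopes from -0.12 to 0.03 (mean -0.04 ± 0.02) there and of 0.02, 0.11 and 0.04 in R8, R9 and R10. NKX2-2 had a treated mean of -0.0017 ± 0.033 with 4 of 7 lineages positive, and DMSO slopes of 0.08, 0.32 and 0.15. JAKMIP2 was at -0.02 ± 0.01, PAPPA at 0.02 ± 0.03 and ID2 at 0.0033 ± 0.019. In the test of the slope difference itself no target gene and none of the 14565 genes passed (0%; limma), and NR0B1, NKX2-2 and PRKCB were the 3 target genes with an unadjusted p under 0.05, beside 1332 genes (9.15%). NKX2-2 differed by -0.19 ± 0.07 and NR0B1 by -0.09 ± 0.04, at adjusted p of 0.487 and 0.522. Without all 6 late libraries both signs turned, to 0.16 for NKX2-2 and 0.022 for NR0B1, and the mean DMSO slope of NKX2-2 went from 0.18 to -0.18.

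**Figure D3:**
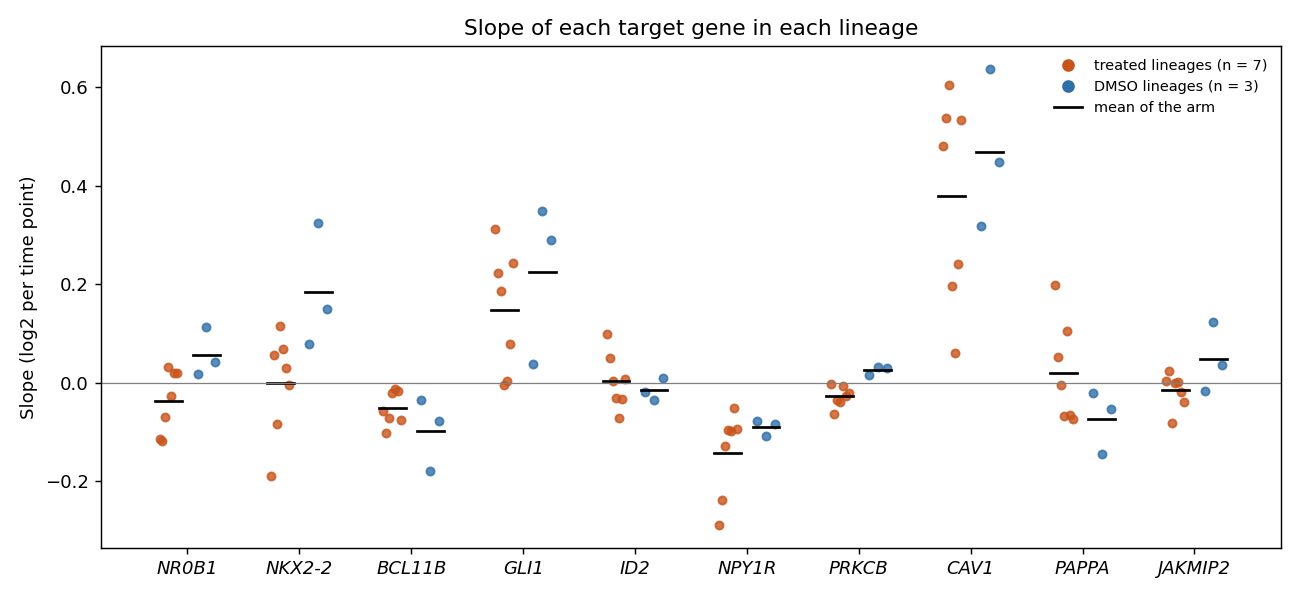
Slope of each target gene on time point within each lineage, in log2 units per time point (points; 7 treated and 3 DMSO lineages), with the mean of each arm as a line. All 10 slopes of CAV1 are above 0 and all 10 of NPY1R and of BCL11B are below 0, while for PRKCB the arms lie on opposite sides.

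Other lists were counted over the same treated slopes, where 15.3% of all genes rose and 23.6% fell. Of 28 other EWSR1-FLI1 activated genes 9 fell and 0 rose (limma), with a median slope of -0.04 against -0.01 for all tested genes. In DMSO lineages, with the spread shared over all 10 lineages, 5 of the 28 fell and 0 rose, where 5.31% of all genes fell. The largest falls in treated lineages were in the telomerase gene TERT (-0.18 ± 0.04, adjusted p 0.0107), the gut and brain peptide gene CCK (-0.11 ± 0.02, adjusted p 0.00648) and the lipase gene LIPI (-0.10 ± 0.01, adjusted p 0.00533). Of 7 kept genes of the insulin-like growth factor axis, IGF2 rose (0.32 ± 0.07, adjusted p 0.0125), and the binding protein gene IGFBP5 (-0.08 ± 0.02, adjusted p 0.0190) and the receptor gene IGF1R (-0.05 ± 0.01, adjusted p 0.0200) fell. Of 6 ID and E protein genes, ID1 rose (0.21 ± 0.07, adjusted p 0.0467) and TCF3 fell (-0.03 ± 0.01, adjusted p 0.0391). Of 7 kept partners and paralogs of NR0B1, NKX2-2, BCL11B and JAKMIP2, the corepressor gene TLE2 fell (-0.07 ± 0.01, adjusted p 0.00719). Several of these changes were also seen in DMSO lineages, with the spread shared over all 10 lineages. There IGF2 rose (0.41 ± 0.10, limma adjusted p 0.0372), and LIPI (-0.19 ± 0.03, adjusted p 0.0220) and TLE2 (-0.09 ± 0.02, adjusted p 0.0380) fell. TCF3 was at -0.05 ± 0.02 there and did not pass (adjusted p 0.0811).

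Markers of other tissues and of RNA quality moved with these slopes. In treated lineages 4 of 6 kept muscle and fibroblast markers and 2 of 3 kept epithelial markers rose, where 15.3% of all genes rose. There 12 of 13 mitochondrially encoded genes fell (limma, all 13 with negative slopes), where 23.6% of all genes fell. In DMSO lineages, with the spread shared over all 10 lineages, 1 of 6 and 1 of 3 of these markers rose, where 4.55% of all genes rose. All 13 mitochondrially encoded genes fell there, where 5.31% of all genes fell. Their median slope was -0.14 in treated and -0.22 in DMSO lineages. Summed mitochondrially encoded values ranged from 47822 to 486850.0 over treated and from 60138 to 379000.0 over DMSO libraries, and R1 held the highest at time point 3. Their part in the slopes of the target genes was not tested.

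The third comparison set libraries after VDC against those after EC within the treated lineages, with lineage as a block and a linear term for time. None of the 10 target genes and none of the 14565 genes passed (0%; limma), and 4 target genes and 2118 genes (14.5%) had an unadjusted p under 0.05. JAKMIP2 was at 0.24 ± 0.08 log2 units higher after VDC (adjusted p 0.160), with medians of 1634 normalized counts in 27 libraries after VDC and 1401 in 22 after EC. NKX2-2 was at 0.55 ± 0.23 (adjusted p 0.243) and NR0B1 at 0.27 ± 0.12 (adjusted p 0.284). Without the last libraries of R1 (time point 9) and R2 (time point 10), NR0B1 was at 0.32 ± 0.07 log2 units and was the only target gene that passed (limma adjusted p 0.0347), beside 50 of all genes (0.343%). CAV1 was lower after VDC by a log2 difference of -1.004 ± 0.38 (adjusted p 0.205), but time points 1 and 3, before the step, both followed VDC, and over time points 4 to 10 its difference was -0.46 ± 0.35. JAKMIP2 also had a higher treated median up to time point 3 (1764) than from time point 4 (1436). In the test of whether the difference by course differed between arms no target gene and no gene passed (0%), with 0 target genes and 685 genes (4.70%) at an unadjusted p under 0.05. Treated lineages exceeded DMSO lineages in it by 0.08 ± 0.17 for JAKMIP2, 0.38 ± 0.49 for NKX2-2 and 0.14 ± 0.19 for NR0B1, each smaller than its SE.

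At single time points the arms were compared with the spread of all 72 libraries of R1 to R10, without a lineage term. At time point 7 the DMSO arm was R8 alone, a single library assumed to vary like the others. No gene passed at time points 1, 4, 5, 6, 7 or 8 (0% at each; limma), with 182 to 1475 genes at an unadjusted p under 0.05. Among the target genes 1 (PAPPA) was under it at time point 4, 3 (NR0B1, JAKMIP2 and ID2) at time point 8 and 0 at the others. At time point 9, 194 genes (1.33%) passed, 115 of them (0.79%) lower in treated lineages, and NR0B1 was the only target gene among them. At time point 10, 9 genes (0.0618%) and no target gene passed, while 4 target genes and 1713 genes had an unadjusted p under 0.05.

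NR0B1 at time point 9 held 997, 2635 and 2764 normalized counts in the treated lineages R1, R4 and R5, and 3455, 5544 and 3548 in the DMSO lineages R8, R9 and R10. The groups did not overlap, and the share of all genes without overlap at this time point was not counted. The log2 difference was -1.07 ± 0.28, or 2.11-fold lower in treated lineages (limma adjusted p 0.0394). Without R1, which is also the late treated library at this time point, it was -0.60, without R9 it was -0.85 and without the 4 late DMSO libraries -0.83, and none of these passed. Without all 6 late libraries it was -0.36. The call was also lost without R3, without R7 (neither has a library here) and without the filter on low values, with the difference unchanged at -1.07. From time point 1 to time point 7 the differences lay between -0.18 and 0.05. At time point 10 the treated lineages R2, R5 and R6 held 840.4, 1526 and 2881 against 2274 and 4156 in R8 and R10 (-0.99 ± 0.32, adjusted p 0.178), with overlap.

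NKX2-2 at time point 9 held 11.6, 42.2 and 29.8 normalized counts in R1, R4 and R5 and 47.2, 272 and 83.7 in R8, R9 and R10, without overlap. Its log2 difference of -2.02 ± 0.65 did not pass (adjusted p 0.0945), and with a pseudocount of 10 it was -1.69 and passed (limma adjusted p 0.0494). PAPPA held 7091, 1379.9 and 1973.5 in the treated and 1800, 737 and 1435 in the DMSO lineages in that order, with overlap, at 1.11 ± 0.38 (adjusted p 0.117). That difference was 0.41 to 1.59 when a lineage was left out and -0.13 without the 6 late libraries. PRKCB at time point 10 was at -0.57 ± 0.18 (adjusted p 0.178), and its 3 treated values of 9268, 11102 and 10270.0 lay below the 2 DMSO values of 12784 and 17789. The share of all genes with such a separation at time points 9 and 10 was not counted. The receptor gene NPY5R passed at time point 9, at -0.93 ± 0.23 (adjusted p 0.0276), as did LOXHD1, the 1 of 28 other EWSR1-FLI1 activated genes that did, at -3.62 ± 0.93 (adjusted p 0.0347). Of the 6 kept muscle and fibroblast markers, the collagen gene COL3A1 passed at time point 9 (1.85 ± 0.51, adjusted p 0.0485), and its part in the NR0B1 difference was not tested. The Hedgehog co-receptor gene BOC passed at time point 10 (2.66 ± 0.58, adjusted p 0.0461).

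**Figure D4:**
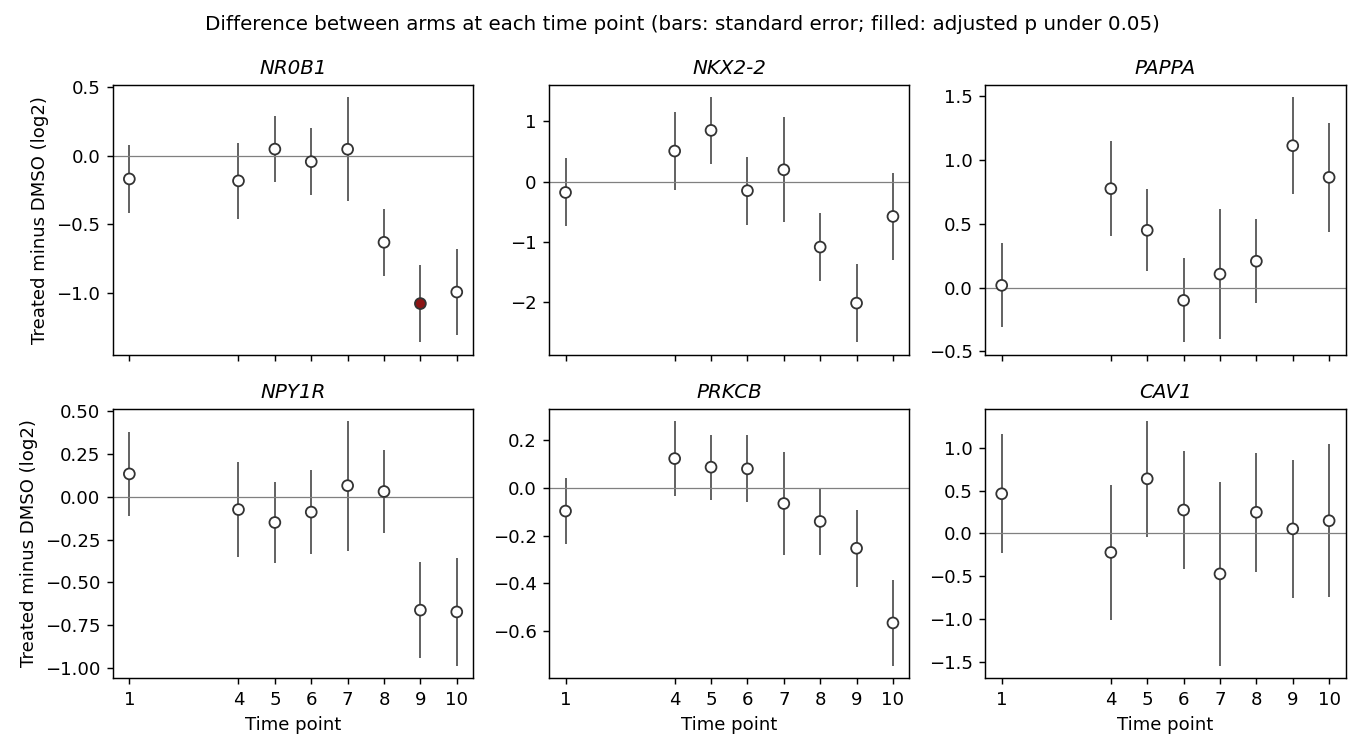
Treated minus DMSO difference in log2 units at each time point with libraries of both arms, for 6 target genes; bars are the standard error of the fit and the filled point marks an adjusted p under 0.05. NR0B1 lies near 0 up to time point 7, where the DMSO arm is 1 library, and at -0.63, -1.07 and -0.99 at time points 8, 9 and 10.

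The late differences came with 6 libraries whose values stood apart from those of the other libraries of the arm at time points 8 to 10. They were set apart with earlier results of these data known, so their values are a description. In the last libraries of R1 and R2 (time points 9 and 10), NR0B1 held 997 and 840.4 normalized counts, below the 1526 to 2881 of the other 10 treated libraries. NPY1R held 1944 and 1546 there against 5510.1 to 7949, and BCL11B 10864 and 9663 against 12355 to 16704. PAPPA was above the other libraries, at 7091 and 4651 against 1212 to 2255, and so were CAV1, at 12882 and 15172 against 1612 to 10909, and GLI1, at 245 and 306 against 13.5 to 81.3. These 6 of 10 target genes lay on the same side outside the range of the other 10 libraries in both, as did 39.2% of the 14565 genes, while NKX2-2, PRKCB, JAKMIP2 and ID2 overlapped with it. The 2 libraries were each nearest to the other (r 0.986), and they held the highest sums of muscle and fibroblast markers, 41894 and 50206.

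In the DMSO arm, R9 at time points 8 and 9 and R10 at time points 9 and 10 stood apart on other genes. NKX2-2 held 194 and 272 in R9 and 83.7 and 116 in R10, above the 21.9 to 47.2 of the other 4 DMSO libraries. NR0B1 held 4938, 5544, 3548 and 4156 against 2274 to 3455, JAKMIP2 3027, 3467, 2035 and 2734 against 1410.1 to 1634, and PRKCB 16027, 15038, 13603 and 17789 against 9926 to 12784. PAPPA was below the others, at 737 to 1435 against 1616 to 1800, and NPY1R, at 5185 to 6843, lay just below the 6852 to 7329 of the others at its upper end. On both sides together, 6 of 10 target genes and 20.6% of the 14565 genes lay outside the range of the other 4. In R9 the summed epithelial markers were 1062 and 1461 at these time points, and in R10 at time point 10 they were 866. Over all libraries NR0B1 was lowest in the late libraries of R1 and R2 and highest in those of R9. R2 held 4286 at time point 5, above the late libraries of R10. PAPPA lay above the others in the treated and below them in the DMSO set.

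**Figure D5:**
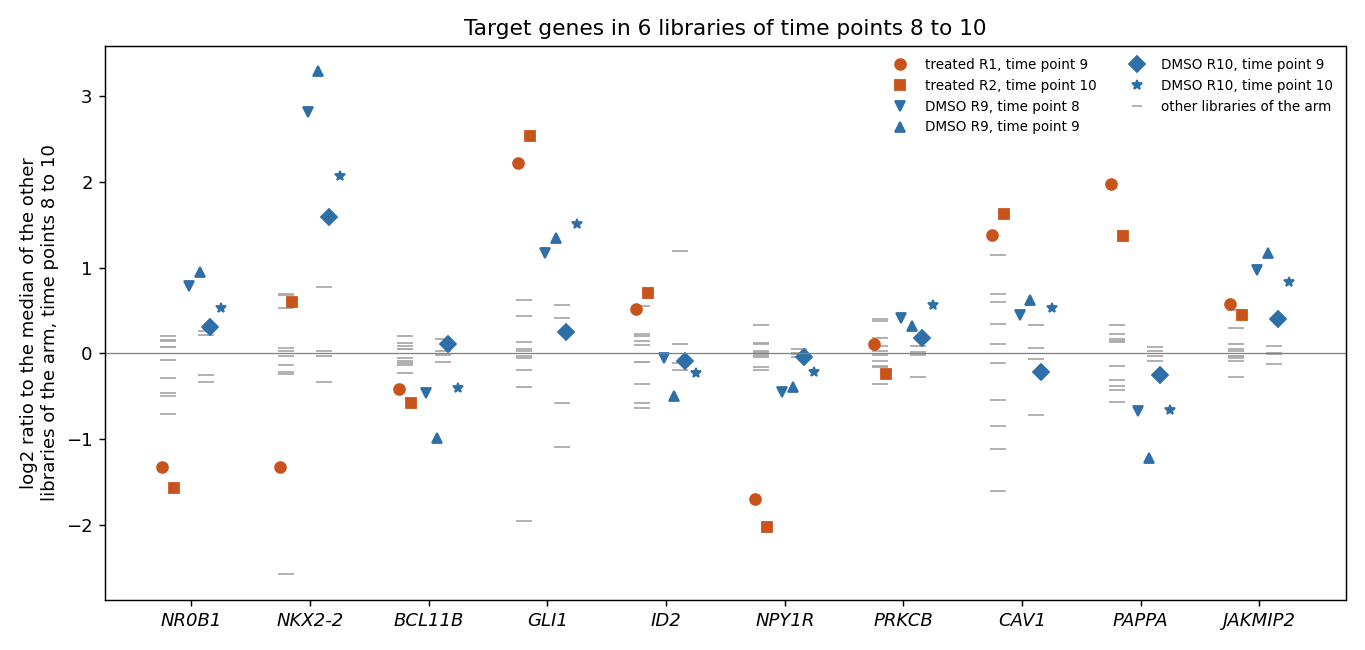
Ratio of each target gene to the median of the other libraries of the arm at time points 8 to 10 (log2), for 2 treated and 4 DMSO libraries (symbols), with the other 10 treated and 4 DMSO libraries as grey dashes. NR0B1 is below the other treated libraries in R1 and R2 and above the other DMSO libraries in R9 and R10, and NKX2-2 is high in R9 and R10.

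Among themselves the target genes formed no single block. Over the 73 libraries NKX2-2 correlated with JAKMIP2 (r 0.66), PRKCB (0.60) and NR0B1 (0.58), CAV1 with GLI1 (0.68), and BCL11B with NPY1R (0.60), while CAV1 and BCL11B ran opposite (-0.65). Without the 6 late libraries the value for NR0B1 and NKX2-2 was 0.55 and that for CAV1 and JAKMIP2 went from -0.38 to -0.72. The libraries share lineages and the step at time point 4, so these values carry no test. NR0B1 was most like the homeobox gene ALX4 (r 0.83), the integrin chain ITGB2 (0.80) and REEP6 (0.79), at 0.55, 0.55 and 0.58 without the 6 late libraries. NKX2-2 was most like JCAD (0.85), RGS14 (0.85) and RNF182 (0.85), JAKMIP2 like SLC24A3 (0.84), AKR1A1 (0.81) and CMIP (0.79), and PAPPA like IQGAP2 (0.85), KIAA1217 (0.77) and MCF2L (0.76). ID2 was most like the homeobox gene GSC (0.73), ZNF628 (0.72) and NFIL3 (0.71).

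The spread of the target genes differed as widely as their levels. CAV1 varied 129-fold between its lowest and highest library, and its log2 SD of 1.66 over the 72 libraries of R1 to R10 was above that of 98.04% of tested genes. NKX2-2 (55.7-fold) and GLI1 (30.7-fold) followed, with SDs above those of 93.0% and 91.8% of tested genes. PRKCB was the steadiest, at 2.09-fold and an SD above that of 24.2% of tested genes. ID2 passed in no comparison; it ranged from 1699 normalized counts in R5 at time point 10 to 7482 in R10 at time point 8, and at time point 5 it held 2263 to 6791 in treated and 3060.3 to 4955 in DMSO lineages.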

How the data were processed

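RNA of CHLA-9 cultures came from a Qiagen kit. STAR did the alignment and counting per the labels' protocols, and STAR, featureCounts and GRCh38 are named, with no versions, in the submitters' processing notes. The deposited signal is a table of quantile-normalized counts for 36233 genes in 73 columns, whose totals are 13583520 in each treated column and 13582508 in the others, as the values show. How the authors normalized is not given in the sources used here, and since ranks are mapped to shared values, the depth of a library is unknown and counting intervals are left out.

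Groups came from the labels. Values were analysed as log2(value + 1) after removing genes whose mean was under 10, which left 14565. The fits used limma 3.58.1 with a variance trend, run in R 4.3.3 with the package data.table (version 1.17.8), and a gene was called at a Benjamini-Hochberg adjusted p under 0.05 over all of them. A fold change on this scale understates that of low genes such as NKX2-2 and GLI1. Over all time points each lineage had 1 value, from a least-squares fit with terms for lineage and time point; slopes were fitted within lineages; libraries after VDC and EC were compared with lineage as a block; single time points shared 1 fit of 72 libraries. The labels say the libraries of a lineage come from the same culture, which is the pairing used; their deviations correlated at 0.0814 on average over 219 pairs, against -0.0411 over 1188 other pairs of the arm. All lineages come from 1 cell line, so p-values of lineage values and slopes measure the spread between these cultures. Those of VDC against EC and of single time points measure the spread between libraries. At single time points, repeated libraries of a culture are counted as independent, without a lineage term. In VDC against EC they are counted so only after the lineage block and the linear term for time.

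The named genes were all 10 target genes and, of each other list, up to 3 past the threshold with the largest difference or else the 2 with the smallest p, always with EWSR1 and FLI1, and the 3 symbols with the highest Pearson r per target gene. Target genes, lists and alternatives were chosen with earlier results of these data known. Promoters came from RefSeq (GRCh38.p14), which held 9 of the 10 genes in the table used, and gene coordinates from GENCODE 29. The functions were tested on simulated data. Figures used matplotlib 3.10.9 in Python 3.11.15. Alternatives were another pseudocount, no filter, repeated quantile normalization, no variance trend, other replicate blocks, leaving out each lineage or named libraries, and other ranges of time points; the shared spread for slopes, time points 4 to 10, leaving out R1 at time points 1 and 3 and leaving out all 6 late libraries were added after the data were seen.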

Additional observations from a re-analysis of the deposited data

Results flagged for a closer look

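In 70 groups of 5 to 7 treated libraries (10 target genes at 7 time points), 8 held a library far from the others, where chance flags about 1 group in 20. R1 accounted for 6 of the 8. At time point 1, R1 held 14768 normalized counts of NPY1R, above the 9469 to 10864 of the other 5 lineages, and was lowest for BCL11B (15522, others 17788 to 18942) and ID2 (2587, others 3086 to 3371). PRKCB in R1 at time point 3 was 11226, below the others at 13603 to 14768. CAV1 in R1 at time point 4 was 806, below the others at 4726 to 17335, and NPY1R in R1 at time point 5 was 9748, above the others at 6359 to 7560. At time point 8, NKX2-2 in R6 was 4.88, below the others at 24.8 to 46.7, and JAKMIP2 in R5 was 1765, above the others at 1345 to 1483. The parental library, which entered no test, held 3200.1 of CAV1 and 62.0 of GLI1, above the DMSO libraries of time point 1 (306 to 735 and 9.99 to 29.05).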

How the results depend on the processing

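Of the calls, CAV1 and NPY1R for treated slope held in 20 of 22 alternatives, BCL11B in 19, GLI1 and PRKCB in 13 each, and NR0B1 at time point 9 in 11 of 19; all kept their direction. The 5 treated slopes called became 3 without the filter (4428 of 36233 genes called), 0 without time point 1, 0 over time points 4 to 10 (0 genes called in both), and 2 to 5 when a lineage was left out. The 1 call at single time points became 2 with a pseudocount of 10, 0 without the filter, 0 without the 4 late DMSO, the 2 late treated or all 6 late libraries, and 0 to 5 when a lineage was left out. The 0 calls over all time points became 0 to 2 when a lineage was left out. Both maxima came without R8, where 9.32% of all genes passed over all time points and 3.56%, 9.1% and 5.91% at time points 8, 9 and 10. The 0 calls after VDC against EC became 1 (NR0B1) without the 2 late treated libraries, and also without all 6 (0.343% of all genes in both). The cause of these changes was not tested.

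Lineage is the replicate block. With no replicate block the DMSO slopes gave 4 calls (CAV1, GLI1, BCL11B, NPY1R) in place of 0, beside 30.6% of all genes, and with the spread shared over 10 lineages 2; treated slopes with no replicate block were -0.0057 for ID2 and 0.015 for NKX2-2, both turned in sign. In all other comparisons run both ways the block changed no call of a target gene.

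Other signs that turned belong to uncalled differences. Over all time points, without the 4 late DMSO libraries, over time points 1 to 7 and without all 6 in that order, they were 0.026, 0.019 and 0.012 for JAKMIP2, 0.17, 0.28 and 0.19 for NKX2-2, and 0.022, 0.047 and 0.023 for PRKCB. GLI1 was -0.059 without the 2 late treated libraries and -0.023 to 0.27 when a lineage was left out. DMSO slopes without the 4 (or 6) late libraries were 0.049 for ID2, -0.061 for JAKMIP2, -0.18 for NKX2-2, -0.017 for NR0B1 and -0.036 for PRKCB, and that of PAPPA over time points 4 to 10 was 0.031. Treated slopes without the 2 (or 6) late libraries were 0.0052 for NR0B1 and -0.039 for PAPPA. Without time point 1 they were 0.014 for JAKMIP2 and 0.027 for NKX2-2, and over time points 4 to 10 -0.063 for ID2, 0.055 for JAKMIP2 and 0.15 for NKX2-2. NKX2-2 was at 0.0020 with a pseudocount of 10 and 0.0073 without R1 at time points 1 and 3. When a lineage was left out, treated slopes ran from -0.013 to 0.016 for ID2, -0.021 to 0.030 for NKX2-2 and -0.0094 to 0.036 for PAPPA. Slope differences without the 4 and the 6 late libraries were -0.046 and -0.045 for ID2, 0.045 and 0.028 for JAKMIP2, 0.17 and 0.16 for NKX2-2, and 0.0076 and 0.0057 for PRKCB, and without the 6 0.022 for NR0B1. Over time points 4 to 10 they were 0.032 for CAV1 and 0.052 for GLI1, and without time point 1 0.024 for GLI1. PAPPA at time point 9 was -0.13 without the 6. After VDC against EC, leaving out a lineage gave -0.12 to 0.019 for NPY1R and -0.0033 to 0.096 for PRKCB. Depth is unknown, so what counting error adds cannot be given.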
